A study of Mus musculus with 6 samples.

Results

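The brush border is the dense layer of microvilli on the luminal face of proximal tubule cells in the kidney. Its membrane carries peptidases that split filtered peptides, its microvilli are packed bundles of actin filaments, and linker and scaffold proteins hold enzymes and transporters at that membrane. Ezrin ties the membrane to actin, PDZ-domain scaffolds bind the tails of transporters and connect them to ezrin, and a pair of protocadherins joins neighbouring microvilli at their tips.

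The group described here is 10 genes of this layer, chosen by name from the gene symbols of the count tables: Anpep, Dpp4, Mep1a and Mep1b (peptidases), Cdhr2 and Cdhr5 (adhesion between microvilli), Vil1 and Ezr (actin bundle and membrane linker), and Pdzk1 and Slc9a3r1 (scaffolds). They are 10 of 17680 genes listed, and all 10 were among the 14219 genes that passed the low-count filter. The libraries are bulk RNA sequencing of whole kidney of wild-type mice of the C57BL/6 strain, 6 to 8 weeks old. The LPS group is 3 mice given lipopolysaccharide, an outer membrane molecule of bacteria that sets off septic kidney injury in this model, by intraperitoneal injection, and the Control group is 3 mice given PBS by the same route. Both were labelled as day 1, and kidneys were taken 24 h after LPS, per the design text. Neither dose nor sex is stated in the sources used here. The design compares injured with uninjured kidneys, and the LPS mice model acute endotoxin exposure, not infection.

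The libraries held between 29097558 and 33454344 counts. Kidney markers were present in both groups: 9 of 10 proximal tubule markers were lower in LPS kidneys, with a summed level of 2769 to 3110 CPM (a count divided by its TMM-scaled library size) in LPS libraries and 7578 to 8784 CPM in Control libraries. Over all genes tested, 24.8% were lower. The tubular injury markers Havcr1, Lcn2, Krt20, Sox9 and Vcam1 summed to 4753 to 5918 CPM in LPS libraries and 34.5 to 47.8 CPM in Control libraries. LPS replicate 2 stood apart by seminal vesicle transcripts, which summed to 36732 CPM there and to 32.5 to 46.3 CPM in the other 5 libraries, so values without it are given where they change the call of a brush border gene or of a gene in the related lists. CPM values are scaled between libraries with TMM factors, and FPKM values, which also divide by gene length, are used wherever levels of different genes are compared.

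In LPS kidneys 7 of the 10 genes fell and 2 rose, where 24.8% of all genes tested fell and 25.7% rose, 50.5% together (quasi-likelihood test of edgeR, adjusted p under 0.05 by Benjamini-Hochberg over 14219 genes). All 4 peptidases fell, both scaffolds fell, and both cytoskeletal genes, Ezr and Vil1, rose. The median log2 fold change of the 10 was -0.55, against 0.01 over all genes tested, and their range ran from -4.20 for Mep1b to 0.95 for Ezr. In CPM, 9 of the 10 genes had no overlap between the groups, against 60.2% of all genes tested. In bulk tissue, fewer of the cells that express a gene and less of its RNA per cell cannot be told apart. This holds for every decrease given here, of proximal tubule genes and of others.

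**Figure D1:**
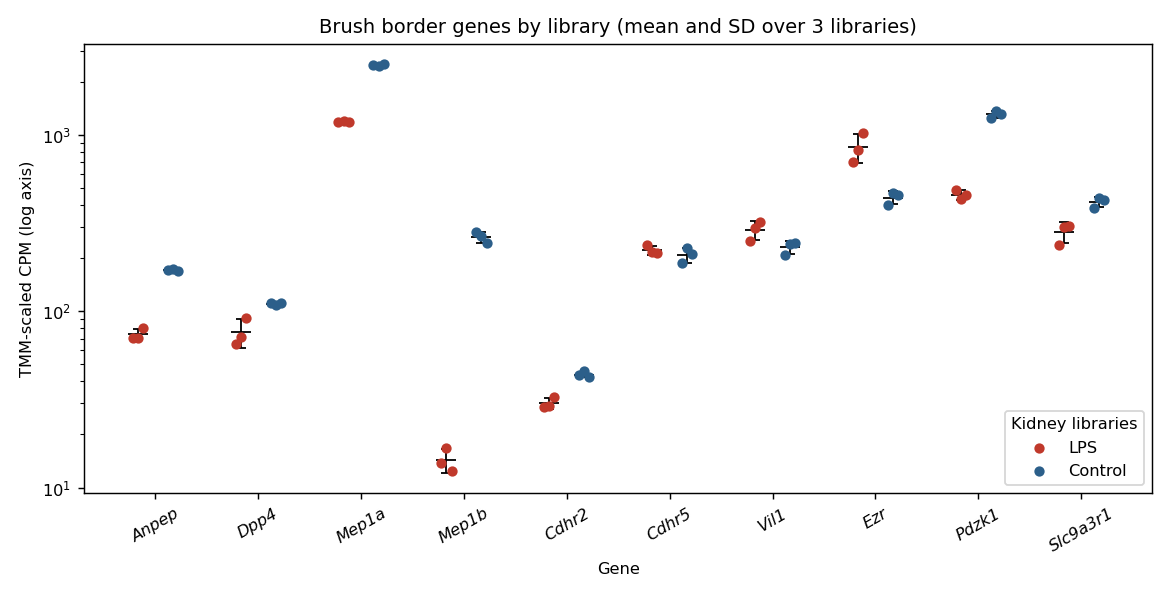
TMM-scaled CPM of the 10 brush border genes in each library on a log axis, LPS left of Control, with points for libraries and bars for the mean and SD over 3 libraries. The LPS points lie below the Control points for 7 genes and above them for Vil1 and Ezr, and they overlap for Cdhr5.

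The meprin subunits, both peptidases, fell by unequal amounts. Mep1a encodes the alpha subunit of the metalloprotease meprin and Mep1b the beta subunit, which carries the membrane anchor that can hold alpha at the cell surface. Mep1b stood at 13.8, 16.7 and 12.4 CPM in LPS replicates 1, 2 and 3, against 281, 266 and 244 CPM in Control replicates 1, 2 and 3. Every LPS library was far below every Control library. Mep1b was 18.4-fold lower in LPS kidneys, a log2 fold change of -4.20 ± 0.13 (SE, n = 3 per group; edgeR adjusted p = 8.65e-08). Only 45 of the 14219 genes tested, 0.316%, had a lower fold change. The raw counts behind the LPS values were 450, 555 and 383, against 8417, 8158 and 7434 in Control libraries, so counting error is small beside the difference.

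Mep1a stood at 1194, 1196 and 1181 CPM in LPS libraries, against 2506, 2483 and 2519 CPM in Control libraries. The libraries of each group lay close together and the groups were clearly separated. Its log2 fold change was -1.07 ± 0.07 (SE; edgeR adjusted p = 2.59e-06), a 2.10-fold decrease. Per length Mep1a remained the most abundant of the 10 genes in both groups, at 397 ± 6.68 FPKM in LPS and 840 ± 20.5 FPKM in Control kidneys (SD, n = 3 each). It ranked 153 of 17680 genes by mean FPKM in LPS kidneys and 52 in Control kidneys.

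The FPKM ratio of Mep1a to Mep1b was 66.1, 54.8 and 72.9 in LPS libraries, against 6.81, 7.15 and 7.88 in Control libraries. This ratio does not depend on how libraries are scaled, and the groups did not overlap. The difference in log2 ratio was 3.14, with an exact two-sided permutation p of 0.1, the smallest that 3 against 3 libraries can give. This ratio and 5 others between members were chosen after the values were seen, and the adjusted p over the 6 was 0.1 for each.

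Anpep encodes aminopeptidase N, which removes neutral residues from the start of peptides. It stood at 70.8, 70.9 and 80.6 CPM in LPS libraries, against 171, 173 and 170 CPM in Control libraries. Every LPS library lay below every Control library, and the log2 fold change was -1.21 ± 0.08 (SE; edgeR adjusted p = 5.27e-06). Dpp4 encodes dipeptidyl peptidase 4, which cuts dipeptides that end in proline or alanine and is also a surface protein of T cells. It stood at 65.4, 71.2 and 92.1 CPM in LPS libraries, against 112, 108 and 111 CPM in Control libraries. LPS replicate 3 lay closest to the Control libraries but did not reach them. The log2 fold change of Dpp4 was -0.53 ± 0.12 (SE; edgeR adjusted p = 0.00566), and -0.69 without LPS replicate 3. The FPKM ratio of Anpep to Dpp4 was 1.87 ± 0.198 in LPS and 2.95 ± 0.0859 in Control kidneys (SD, n = 3 each), with no overlap (exact two-sided permutation p = 0.1).

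Dpp4, Anpep and Ezr are also made by leukocytes, so leukocyte markers are given beside them. Of 11 such markers 9 were tested, of which 3 rose (Itgam, Cd68 and S100a8) and 5 fell (Cd4, Cd8a, Csf1r, Flt3 and Xcr1). Over all genes tested, 25.7% rose and 24.8% fell. The 3 markers that rose did so by large folds. S100a8, a neutrophil and monocyte protein gene, was 32.9-fold higher. It ranged over 24.4 to 34.5 CPM in LPS libraries, against 0.635 to 0.987 CPM in Control libraries. Itgam was 10.8-fold and Cd68 7.36-fold higher. Among the 5 that fell, Flt3 was 4.39-fold and Xcr1 67.3-fold lower. Xcr1 had 0 to 1 counts in LPS libraries and 17 to 51 in Control libraries. Csf1r, a macrophage receptor gene, fell, ranging over 30.5 to 42.7 CPM in LPS libraries against 55.5 to 70.2 CPM in Control libraries. The summed level of all these markers, which went both ways, was 113 to 134 CPM in LPS libraries and 72.9 to 105 CPM in Control libraries. The T cell marker Cd3e had 3 to 5 counts in LPS libraries and 3 to 31 in Control libraries, and the neutrophil marker Ly6g had 0 to 3 in LPS libraries and 0 to 1 in Control libraries. The part of these cells in the levels of the 3 genes was not tested.

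Other hydrolases of the brush border and their relatives, a list chosen by textbook location, showed mostly the same direction. Of 12 tested, 8 fell and 0 rose, against 24.8% and 25.7% of all genes tested. The list had a median log2 fold change of -1.03. At an unadjusted p under 0.05 edgeR would add 1 higher gene, Nt5e (adjusted p = 0.0820), and DESeq2 and limma-voom called 0 higher. The 4 with the smallest p were Ggt1 (-1.55 ± 0.08), which encodes the glutathione-splitting gamma-glutamyltransferase, Mme (-1.49 ± 0.08), which encodes neprilysin, Cltrn (-1.32 ± 0.07), which encodes collectrin, a partner of apical amino acid transporters with no peptidase domain, and Dpep1 (-2.01 ± 0.12), a membrane dipeptidase. Xpnpep2, an aminopeptidase acting before proline, had the lowest value, -3.29 ± 0.27. Among those that did not pass the test were Alpl, Folh1 and Nt5e, at log2 fold changes of -0.26, 0.17 and 0.25. Nt5e, which encodes the ectonucleotidase CD73, passed without LPS replicate 2, at 0.34 (adjusted p = 0.0229), and Alpl, an alkaline phosphatase, without Control replicate 1, at -0.39 (adjusted p = 0.00597).

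The scaffolds both fell, Pdzk1 further than Slc9a3r1. Pdzk1 is a multi-PDZ scaffold that binds apical transporters such as those of phosphate and urate. It stood at 489, 432 and 455 CPM in LPS libraries, against 1258, 1367 and 1315 CPM in Control libraries. No LPS library came near the Control range. Its log2 fold change was -1.52 ± 0.08 (SE; edgeR adjusted p = 1.23e-06), a 2.86-fold decrease, and 5.54% of all genes tested had a lower one. In RefSeq, Pdzk1 overlaps Gpr89, for which the LPS libraries held 7056 counts together and the Control libraries 12746. Whether reads were counted by strand is stated in no source used here, and the part of Gpr89 reads in Pdzk1 was not tested.

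Slc9a3r1 encodes NHERF1, a PDZ scaffold whose tail binds ezrin. It stood at 239, 301 and 307 CPM in LPS libraries, against 385, 439 and 427 CPM in Control libraries. LPS replicate 1 was the lowest of the 6 libraries and the groups were separate. The log2 fold change was -0.56 ± 0.11 (SE; edgeR adjusted p = 0.00228). The FPKM ratio of Pdzk1 to Slc9a3r1 was 1.22, 0.855 and 0.885 in LPS libraries, against 1.95, 1.85 and 1.84 in Control libraries (exact two-sided permutation p = 0.1). Among the other NHERF family scaffolds, Pdzd3 fell (-0.76 ± 0.12), while Slc9a3r2 did not pass the test (-0.33 ± 0.14, adjusted p = 0.0714). Slc9a3r2 passed in DESeq2 (adjusted p = 0.0440) and without LPS replicate 2 (-0.51, edgeR adjusted p = 0.00499).

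In a list of proximal tubule transporters compiled as having PDZ-binding tails, 12 of 15 genes fell and 0 rose. The shares over all genes tested were 24.8% and 25.7%, and the list had a median log2 fold change of -0.93. The list is not purely apical: the 12 include Slc22a6 (-1.63 ± 0.18) and Slc26a1 (-1.68 ± 0.25), whose proteins lie in the basolateral membrane. The call of Slc22a5 (-0.29 ± 0.10, adjusted p = 0.0343), a carnitine transporter, was lost with the replicate block (0.0544) and without LPS replicate 2, LPS replicate 3, Control replicate 2 or Control replicate 3 (0.111, 0.104, 0.0863 and 0.124). Besides the phosphate transporter genes Slc34a1 (-3.62 ± 0.11) and Slc34a3 (-4.46 ± 0.23), the smallest p belonged to Slc22a13 (-1.15 ± 0.09), an organic anion transporter, and Slc15a2 (-0.93 ± 0.07), a peptide transporter. Slc9a3, the sodium-proton exchanger after which the NHERF proteins are named, missed the threshold, with 158 ± 21.9 CPM in LPS kidneys against 163 ± 20.9 CPM in Control kidneys (log2 fold change -0.05 ± 0.13). Abcc2 and Abcc4 did not pass either, at -0.22 and 0.25, although Abcc2 passed without LPS replicate 1 (-0.31, adjusted p = 0.0145). At an unadjusted p under 0.05 edgeR would add Abcc2 to the genes that fell and 0 to those that rose, and DESeq2 and limma-voom also called 0 higher.

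The cytoskeletal members went the other way. Ezr encodes ezrin, the linker between microvillar membrane and actin. It stood at 706, 827 and 1031 CPM in LPS libraries, against 399, 469 and 457 CPM in Control libraries. Each LPS library was above each Control library, and the LPS libraries were spread more widely. The log2 fold change was 0.95 ± 0.14 (SE; edgeR adjusted p = 0.000419), a 1.93-fold increase, and it lay between 0.80 and 1.07 when any 1 library was left out. By mean FPKM Ezr ranked second of the 10 genes in LPS kidneys, at 277 ± 50.0 FPKM, and in Control kidneys it ranked after Mep1a, Pdzk1 and Slc9a3r1, at 144 ± 9.34 FPKM (SD, n = 3 each).

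Vil1 encodes villin, which bundles and can sever microvillar actin. It stood at 252, 296 and 322 CPM in LPS libraries, against 209, 240 and 243 CPM in Control libraries. The highest Control library lay just below the lowest LPS library. The log2 fold change was 0.33 ± 0.11 (SE; edgeR adjusted p = 0.0291), a 1.26-fold increase. This call was lost without LPS replicate 2, LPS replicate 3, Control replicate 1 or Control replicate 2, with adjusted p-values of 0.0676, 0.0907, 0.0994 and 0.0614 and log2 fold changes of 0.25 to 0.36. Vil1 overlaps Usp37 in RefSeq, for which the LPS libraries held 1514 counts together and the Control libraries 1553. The FPKM ratio of Ezr to Vil1 was 2.98 ± 0.238 in LPS and 1.94 ± 0.0406 in Control kidneys, and that of Ezr to its partner Slc9a3r1 was 1.92 ± 0.198 in LPS and 0.673 ± 0.0120 in Control kidneys (SD, n = 3 each; exact two-sided permutation p = 0.1 for both).

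Ezrin has close relatives, and they did not share a direction. Msn, which encodes moesin, rose by a log2 fold change of 1.06 ± 0.09, at 88.7 ± 5.67 FPKM in LPS and 42.8 ± 4.24 FPKM in Control kidneys. Rdx, which encodes radixin, fell by 0.33 on the log2 scale, at 41.0 ± 1.15 FPKM in LPS and 51.8 ± 0.500 FPKM in Control kidneys (SD, n = 3 each). Moesin is the abundant form in leukocytes and endothelium. The endothelial markers Pecam1, Kdr, Cdh5 and Emcn summed to 185 to 243 CPM in LPS and 196 to 259 CPM in Control libraries and 0 of the 4 passed in edgeR, where Emcn had an unadjusted p of 0.0460, DESeq2 and limma-voom also called 0, and the leukocyte sums are given above. The part of these cells in Msn was not tested. In the wider list of ezrin relatives, kinases and partners, 5 of 14 rose and 6 fell, against 25.7% and 24.8% of genes tested. The list had a median log2 fold change of -0.15. Besides Msn, those that rose were Nf2 (0.35), which encodes merlin, Clic4 (0.48), a chloride channel family protein, the small GTPase Rhoa (0.30) and Prkar2a (0.47), a regulatory subunit of protein kinase A. Pdzk1ip1 (-0.98 ± 0.09), a membrane partner of Pdzk1, and Clic5 (-0.47 ± 0.08), an ezrin-associated protein, were among those that fell. Prkaca (-0.18 ± 0.07, adjusted p = 0.0451), the catalytic subunit of protein kinase A, was counted among the 6, and its call was lost with the replicate block (0.102), with no low-count filter (0.0754) and without any 1 of the 6 libraries (0.0728 to 0.130; 0.0980 without LPS replicate 2).

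The protocadherins Cdhr2 and Cdhr5 bind each other between the tips of microvilli. Cdhr2 stood at 28.8, 29.1 and 32.5 CPM in LPS libraries, against 43.3, 45.6 and 42.4 CPM in Control libraries. The groups did not overlap, and the log2 fold change was -0.54 ± 0.08 (SE; edgeR adjusted p = 0.000469). Cdhr5 stood at 238, 218 and 213 CPM in LPS libraries, against 188, 229 and 212 CPM in Control libraries. Its groups overlapped and it was the only member that did not pass the test (log2 fold change 0.09 ± 0.09, adjusted p = 0.471), which does not show that the level was the same. The FPKM ratio of Cdhr5 to Cdhr2 was 12.9, 11.7 and 10.3 in LPS libraries, against 6.80, 7.88 and 7.85 in Control libraries (exact two-sided permutation p = 0.1).

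Inside the microvillus, partners of these proteins moved both ways. Of 13 core actin and adhesion partners tested, 4 rose and 5 fell, against 25.7% and 24.8% of all genes tested. The list had a median log2 fold change of 0.02. Cobl (1.13 ± 0.11), an actin nucleator, Myo1d (0.62 ± 0.07), a membrane-bound myosin, Baiap2l1 (0.52 ± 0.10), a membrane-bending protein of microvilli, and Anks4b (0.37 ± 0.11), a scaffold of the tip complex, were higher in LPS kidneys. Vill (-1.32 ± 0.11), a villin relative, and Calml4 (-1.27 ± 0.12), a light chain of the tip myosin, had the lowest values. In the tip complex this left Calml4 and Ush1c (-0.25 ± 0.09) lower, Anks4b higher, and the myosin Myo7b not past the threshold (0.14 ± 0.10, adjusted p = 0.294). The Ush1c call was lost without LPS replicate 2, Control replicate 2 or Control replicate 3 (adjusted p = 0.133, 0.142 and 0.0899), with the replicate block (0.0652) and with no low-count filter (0.0510), and that of Anks4b without Control replicate 2 or 3 (0.0517 and 0.0645). Myo1a was not tested, with 0 counts in the LPS libraries and 1 count in each Control library.

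**Figure D2:**
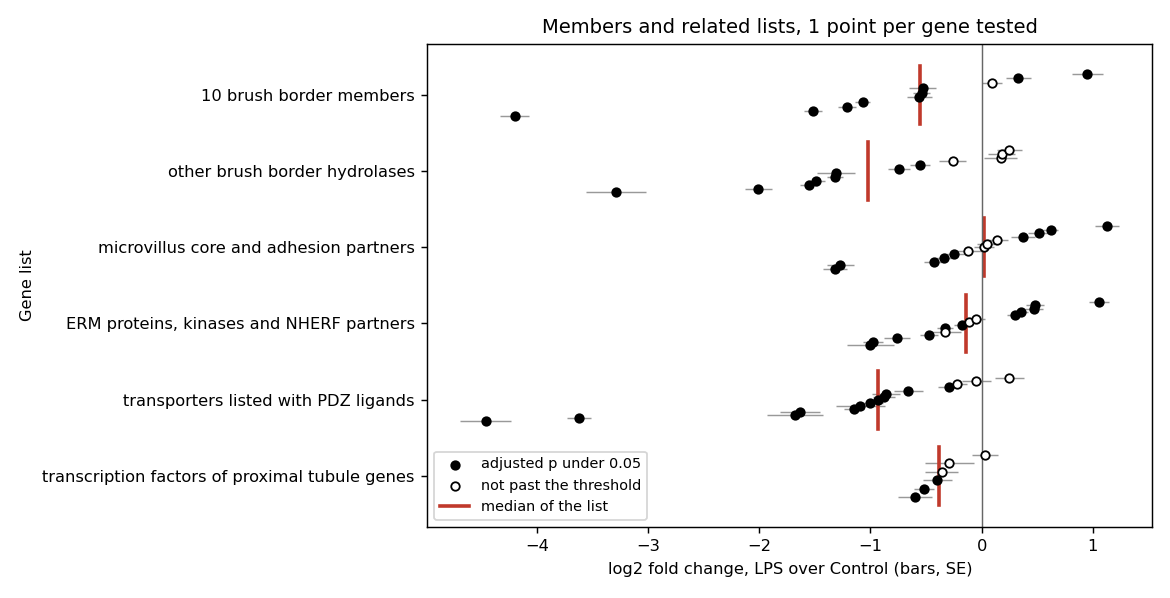
Log2 fold changes of LPS over Control for the 10 members and 5 related lists, 1 point per gene with its SE, filled where the adjusted p was under 0.05, and a red line at each median. The lists of hydrolases and of transporters with PDZ ligands have medians of -1.03 and -0.93, and those of microvillus core partners and ezrin partners medians of 0.02 and -0.15.

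The shares of the 10 genes in their summed level differed between the groups. The 10 genes summed to 1123, 1168 and 1240 FPKM in LPS libraries, against 1934, 1954 and 1935 FPKM in Control libraries. Mep1a held 33.8 ± 2.25% of that sum in LPS and 43.3 ± 1.27% in Control kidneys, and Pdzk1 11.9 ± 1.32% in LPS and 20.7 ± 0.359% in Control kidneys (SD, n = 3 each). Ezr held 23.4 ± 3.03% in LPS and 7.43 ± 0.454% in Control kidneys. A share also moves with the levels of the other genes in the sum. That of Cdhr5, which did not pass the test, was 7.19 ± 0.851% in LPS and 4.11 ± 0.303% in Control kidneys. Mep1b held 0.532 ± 0.0955% in LPS and 5.97 ± 0.532% in Control kidneys. By mean FPKM the order in LPS kidneys was Mep1a, Ezr, Slc9a3r1, Pdzk1, Vil1, Cdhr5, Anpep, Dpp4, Cdhr2 and Mep1b. In that order the libraries of Slc9a3r1 and Pdzk1, of Vil1 and Cdhr5, and of Cdhr2 and Mep1b overlapped, and other neighbours did not. In Control kidneys it was Mep1a, Pdzk1, Slc9a3r1, Ezr, Mep1b, Cdhr5, Vil1, Anpep, Dpp4 and Cdhr2, where Cdhr5 and Vil1 overlapped and other neighbours did not.

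**Figure D3:**
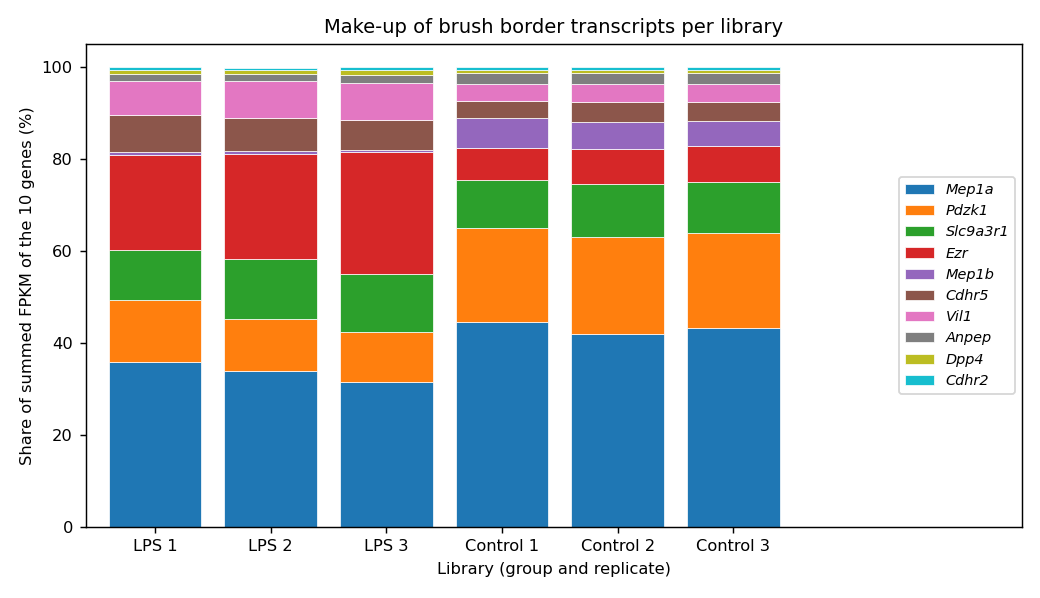
Share of each gene in the summed FPKM of the 10 brush border genes (%, stacked to 100) for the 3 LPS and the 3 Control libraries. The Ezr share is 20.7 to 26.7% in LPS libraries and 6.91 to 7.73% in Control libraries, while the Mep1b share is at most 0.621% in LPS libraries and at least 5.49% in Control libraries.

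Set beside proximal tubule markers, which fell themselves, most members stood higher in LPS libraries. The markers had log2 fold changes from -3.04 to -0.16, so the result depends on which markers are used. The permutation tests here also carry the separation of the markers between the groups, and the design is too small for a p under 0.1. The mean log2 CPM of 10 such markers was 7.60 ± 0.08 in LPS and 9.22 ± 0.18 in Control libraries (SD, n = 3 each), a difference of -1.62. Relative to that mean, Mep1b was lower by 2.59 log2 units in LPS libraries, at -3.76 ± 0.21 in LPS and -1.18 ± 0.27 in Control libraries. Pdzk1 was at 1.24 ± 0.07 in LPS and 1.14 ± 0.13 in Control libraries, and the groups overlapped (exact two-sided permutation p = 0.3). The other 8 genes were higher relative to the markers, with no overlap: by 0.41 for Anpep, 0.55 for Mep1a, 1.05 for Slc9a3r1, 1.07 for Dpp4, 1.08 for Cdhr2, 1.71 for Cdhr5, 1.95 for Vil1 and 2.56 for Ezr. Each of these 8, and Mep1b, had an exact two-sided permutation p of 0.1, the smallest this design can give, and 0.111 after adjustment over the 10. Because the marker mean fell, a gene with no change between the groups also stands higher on this scale. Of all genes tested, only 5.54% had a lower log2 fold change than Pdzk1, so standing higher is not particular to these members. With the median of the markers in place of their mean, the differences for Anpep, Mep1a and Pdzk1 were 0.81, 0.95 and 0.50.

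**Figure D4:**
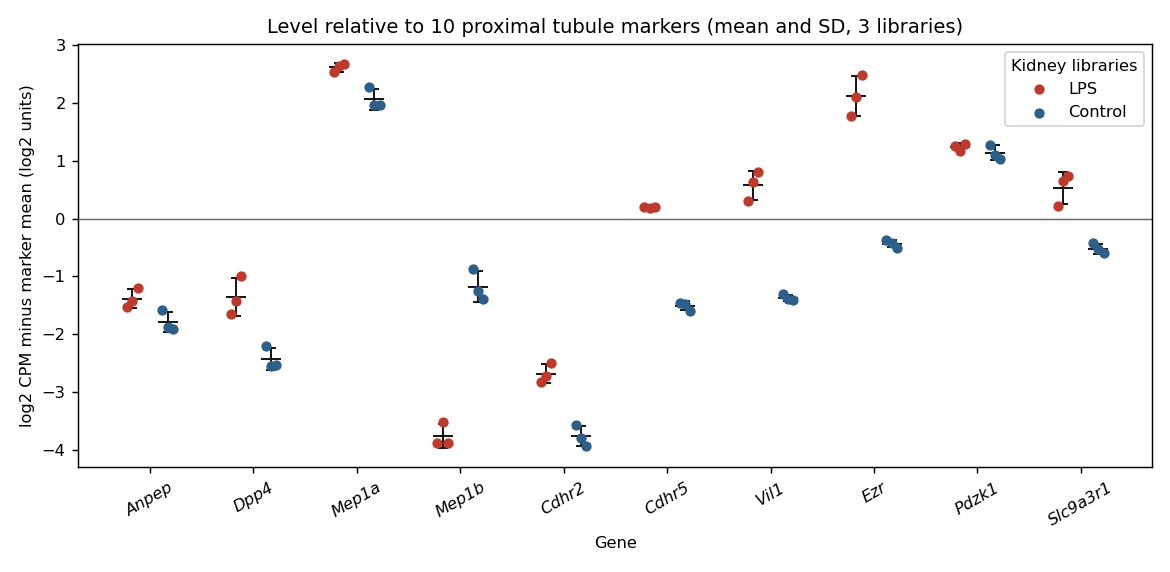
Log2 CPM of each brush border gene minus the mean log2 CPM of 10 proximal tubule markers, per library, LPS left of Control, with the mean and SD over 3 libraries. Mep1b lies lower in LPS libraries, Pdzk1 overlaps, and the other 8 genes lie higher.

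Transcription factors of proximal tubule genes were read from the same fit. Of 6 such genes 3 fell and 0 rose, where 24.8% of all genes tested fell and 50.5% were called either way. The 6 had a median log2 fold change of -0.38, and DESeq2, limma-voom and an unadjusted p under 0.05 also gave 0 higher. Hnf4a stood at 667, 604 and 634 CPM in LPS libraries, against 825, 915 and 1000 CPM in Control libraries (log2 fold change -0.52 ± 0.09, edgeR adjusted p = 0.00128). Maf (-0.60 ± 0.15) and Hnf4g (-0.40 ± 0.13) fell too, and the Hnf4g call was lost without LPS replicate 2, LPS replicate 3 or Control replicate 3 (adjusted p = 0.0872, 0.0655 and 0.0850).

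Promoters of the members were read from RefSeq (build GRCm38.p6) as the 250 bases before each listed start, on the strand of the gene. They were read for 9 of the 10 members, all but Mep1b. A short motif bound by HNF4 factors, CAAAGTC, was searched on both strands in these exact letters. Other forms of it, and motifs of other factors, were not searched. Of these promoters only that of Cdhr2 held it, beginning 20 bases before the start, while 3.84% of 32851 promoters of that length hold it. A match describes the letters and is no evidence of binding. The Cdhr2 sequence (chr13:54701213-54701462, + strand) is shown for this match, in capitals.
Cdhr2: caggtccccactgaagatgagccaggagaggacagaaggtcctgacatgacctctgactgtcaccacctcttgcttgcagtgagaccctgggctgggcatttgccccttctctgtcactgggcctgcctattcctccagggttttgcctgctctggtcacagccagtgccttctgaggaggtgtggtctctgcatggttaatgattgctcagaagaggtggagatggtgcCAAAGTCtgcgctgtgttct

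Members also differed in CG dinucleotides, which cluster in promoters of broadly expressed genes. The promoter of Ezr, which rose, held 32, more than 95.4% of all promoters, and that of Vil1, which also rose, held 5. Mep1b was not read. Among the other members that fell, Anpep held 23, Slc9a3r1 20, Mep1a 6, Dpp4 4 and Cdhr2 1. The pair of starts of Pdzk1, which also fell, held 4 and 5, and Cdhr5, which did not pass the test, held 7. The median over 32851 promoters was 6, and the counts of the members that rose and fell overlapped. The Ezr (chr17:6782781-6783030, - strand) and Mep1a (chr17:43502774-43503023, - strand) sequences are shown as the most induced member and the most abundant one, with CG in capitals.
Ezr: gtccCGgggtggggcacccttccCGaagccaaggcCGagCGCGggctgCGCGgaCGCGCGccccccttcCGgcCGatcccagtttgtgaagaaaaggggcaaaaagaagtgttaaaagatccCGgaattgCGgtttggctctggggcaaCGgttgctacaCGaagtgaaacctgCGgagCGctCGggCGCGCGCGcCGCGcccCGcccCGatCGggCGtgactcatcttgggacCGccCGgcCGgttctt
Mep1a: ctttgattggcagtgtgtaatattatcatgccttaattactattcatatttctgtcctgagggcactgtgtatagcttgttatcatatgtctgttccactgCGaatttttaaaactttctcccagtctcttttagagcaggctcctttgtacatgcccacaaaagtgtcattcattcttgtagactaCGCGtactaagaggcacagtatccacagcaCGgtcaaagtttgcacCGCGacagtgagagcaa

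The genes most like each member were taken by the distance between log2 CPM profiles over the 6 libraries, each centred on its own mean, among 9589 genes with a mean of at least 10 CPM. This distance is a description, since all profiles share the same 6 libraries and follow the difference between the groups. Nearest to Mep1b were Miox (0.524 log2 units), Slc22a28 (0.527) and C1qtnf3 (0.575), with log2 fold changes of -4.36, -4.32 and -3.77. Nearest to Ezr were Glud1 (0.120), Nmi (0.136) and Lgmn (0.157), with log2 fold changes of 0.93, 0.95 and 0.90. Among the nearest to Pdzk1 were Abhd14b (0.103) and B3galt5 (0.126), and Mep1a lay nearest to Acadsb (0.0510), Tcaim (0.0577) and Ankib1 (0.0671). Anpep lay nearest to Me1 (0.0835), Sms (0.0913) and Odc1 (0.0944), and Dpp4 to Tomm7 (0.0768), Iftap (0.0827) and Apool (0.130). Cdhr2 lay nearest to Mib2 (0.0231), Slc9a3r1 to Dnajc30 (0.0952), Vil1 to Ruvbl1 (0.0851) and Cdhr5 to Afg3l1 (0.0578).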

How the data were processed

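Whole-kidney RNA was measured in 3 LPS and 3 Control mice. The authors deposited raw counts per gene symbol and FPKM values per gene symbol for each library; FPKM equalled count over a whole-number length and the library total in 97602 of 97605 values above 0 (relative tolerance 1e-06). The submitters' processing notes list SAMtools, HISAT2, HTSeq, R 3.2.0 and DESeq2 without saying what each did. Build, annotation and strand setting are stated in no source used here.

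Counts were tested with edgeR 4.0.16 (filterByExpr, minimum count 10 and total 15; TMM; two-sided quasi-likelihood test; Benjamini-Hochberg over 14219 genes; threshold 0.05). SE is the log2 fold change over the square root of F. Log2 CPM used a prior count of 2. Ratios used deposited FPKM. Permutation tests were exact over 6 libraries. Replicates, 1 mouse each per the design text, differed by more than counting noise (chi-square per degree of freedom at least 11.1).

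In counts simulated for LPS against Control over 14066 genes, 41.9% of 1.5-fold, 75.7% of 2-fold and 95.6% of 4-fold changes were recovered, and 14 of 158 calls were unchanged genes. Only 200 genes were changed in the simulation, while 50.5% of genes tested were called in the data. The adjusted p depends on that share, so these rates need not hold for the real comparison.

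Members and lists were chosen with earlier results of these data known. Named genes are all members, the 4 list members with the smallest p, those called against most of their list, ezrin and NHERF paralogs, and the 3 genes most like each member; other list members were named after their values were seen. Some genes that this rule names are not reported here, and counts and medians over a list include its unnamed members. Alternatives were RLE factors, library sizes, other filters, DESeq2 1.42.0, limma 3.58.1 (voom, or log2 FPKM plus 1 or 0.1), the replicate block and each library left out.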

Additional observations from a re-analysis of the deposited data

How the results depend on the processing

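The 7 decreases kept their direction and their side of the threshold in all 15 alternative fits, and Cdhr5 stayed outside it, at 0.01 to 0.15. Mep1b ranged from -4.33 to -4.02, Pdzk1 from -1.56 to -1.47, Anpep from -1.27 to -1.18, Mep1a from -1.08 to -1.06, Dpp4 from -0.69 to -0.43, Slc9a3r1 from -0.63 to -0.45, Cdhr2 from -0.59 to -0.49 and Ezr from 0.80 to 1.07 (log2). Leaving out 1 library moved the count of members higher in LPS between 1 and 2, through Vil1 (0.25 to 0.42, adjusted p 0.00603 to 0.0994), and the count of other hydrolases higher in LPS between 0 and 1, through Nt5e; these fits have fewer samples. Over all genes, 3658 rose and 3527 fell, against 3077 to 3724 and 3010 to 3581 over the alternatives. The replicate numbers shared by the groups gave no sign of pairing over all genes together: deviations of same-numbered libraries correlated at 0.0478, -0.0535 and -0.00201. A pairing limited to some genes could go unseen in these correlations. With the number as a block, 7 members were lower and 2 higher, and Vil1 stood at 0.33. Levels relative to proximal tubule markers kept their sign in the 7 alternatives run. A difference of the size of the Vil1 one, with an SE of 0.11 as for that gene, is near the limit of 3 libraries a group.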
